A study of Mus musculus with 13 samples.

Results

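The 8 genes described here encode the transporters and channels with which salivary acinar cells move chloride and fluid into primary saliva. They were Slc12a2, a sodium-potassium-chloride cotransporter, Ano1, a calcium-activated chloride channel, the exchanger Slc4a2 and the cotransporter Slc4a4, which carry bicarbonate, the potassium channels Kcnma1 and Kcnn4, and Atp1b1 and Atp1b3, beta subunits of the sodium pump. They were chosen by symbol, 8 of the 23364 genes with a value in every sample, and all 8 passed the filter on low values in this study. RNA of submandibular glands of C57BL/6 mice was sequenced in 13 samples, of which 3 came from E14.5 (E for embryonic day), and E16.5, E18.5 and P5 (postnatal day 5) gave 2 each, as did mice of 4 and 12 weeks (4wk and 12wk). The embryonic ages together are called embryo (7 samples), P5 is the neonatal stage (2 samples) and both later ages are the adult (4 samples). These are also the stages of the study. All mice were of 1 strain with no treatment or genetic change given, and a sample held pooled glands, of 3 animals at E14.5 and of 2 at the later embryonic ages. The 4wk and 12wk mice were male, while the sex of the embryos and P5 mice was not ascertained, so sex and adult age cannot be told apart. Whole glands were sequenced, and fewer cells of a type and less RNA per cell cannot be told apart in such samples.

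In the textbook account of saliva secretion, the sodium pump in the basolateral membrane keeps sodium low in the acinar cell, and this gradient drives chloride into the cell through the cotransporter Slc12a2 and, paired with bicarbonate, through the exchanger Slc4a2. When a neurotransmitter raises calcium, chloride leaves through Ano1 in the apical membrane, and potassium leaves through the large-conductance (BK) channel Kcnma1 and the intermediate-conductance channel Kcnn4, which keeps the membrane voltage in favour of chloride exit. Sodium and water follow chloride into the lumen. Some of the same genes are also used by duct cells and by other tissues of the gland.

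The deposited values are FPKM, fragments per kilobase of gene length, scaled to the number of reads in the sample, and levels of different genes can be compared on this scale because it is per length. Reads on genes numbered between 5817293 and 48314162 per sample, and the lowest read count of any of the 8 genes was 47, for Slc4a4 in 4wk replicate 2. The counting error of a single value was between 0.569% and 14.6%. The 4 epithelial markers (Epcam, Cdh1, Krt8 and Krt18) were present in every sample, with summed levels between 304 and 1371 FPKM in the embryo, 1156 and 1372 FPKM at P5 and 602 and 717 FPKM in the adult. A pair of embryonic libraries stood apart. E14.5 replicate 1 had 304 FPKM of epithelial markers against 529 and 516 FPKM in replicates 2 and 3, and 2991 FPKM of red blood markers against 335 and 670.5 FPKM, nearly all from Hbb-y, while Hba-a1 was at 0 in all samples. E16.5 replicate 2 had 855 FPKM of skeletal muscle markers against 369 FPKM in replicate 1. These markers were also at 380 FPKM in E14.5 replicate 1, against 138 and 111 FPKM in replicates 2 and 3. At E18.5 they were at 2.42 and 15.9 FPKM, so both E16.5 samples were above E18.5. Beside the results from E14.5 to E18.5 that rest on these libraries, values without them are given.

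Differences were tested with limma on log2(FPKM + 1) over the 14650 genes that reached 1 FPKM in at least 1 sample. A gene was called when its log2 fold change was at least 1 in size and its Benjamini-Hochberg adjusted p was below 0.1, the thresholds of the study. A few secretory genes took up a large part of the adult reads, the 10 highest genes holding between 48.1% and 61.1% of adult FPKM and as little as 5.93% in an embryonic sample. This lowers the FPKM of every other gene. The median log2 fold change of all tested genes between adult and embryo was -0.75 in the deposited values and -0.05 after rescaling by median-of-ratios factors, so each adult fold change of the 8 genes is given on both scales, and values per sample are deposited FPKM unless called rescaled. For P5 against embryo the median of all genes was -0.25 and -0.02, and for adult against P5 it was -0.53 and -0.04.

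Between embryo and adult, 3 of the 8 genes were called higher (Slc12a2, Kcnn4 and Atp1b1) and 1 lower (Atp1b3), where 5.58% of all tested genes were called higher, 38% lower and 43.6% in either direction. After rescaling, 5 of the 8 were called higher, with Ano1 and Kcnma1 added, and 0 lower, where 13.8% of all genes were called higher and 14.7% lower. The median change of the 8 genes was 0.91 on the deposited and 1.74 on the rescaled log2 scale. At P5 the called genes were 2, Slc12a2 and Atp1b1, both higher than in the embryo on both scales, where 12.3% of all genes were called in either direction, 4.14% higher and 8.14% lower (5.57% higher after rescaling). Their adjusted p values were 0.051 and 0.0525, and both calls were lost without either P5 sample (adjusted p between 0.204 and 0.258) and with no filter on low values (0.112 for Slc12a2 and 0.114 for Atp1b1). No member was called between P5 and adult in limma on either scale, against 23.1% of all genes on the deposited scale (2.31% higher and 20.8% lower) and 14.6% on the rescaled one, with 3 of 8 at an unadjusted p below 0.05 and 1, Slc4a4, called lower by limma-voom on read numbers recovered from the FPKM. The plot of log2 fold changes gives the interval of each gene on both scales.

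**Figure D1:**
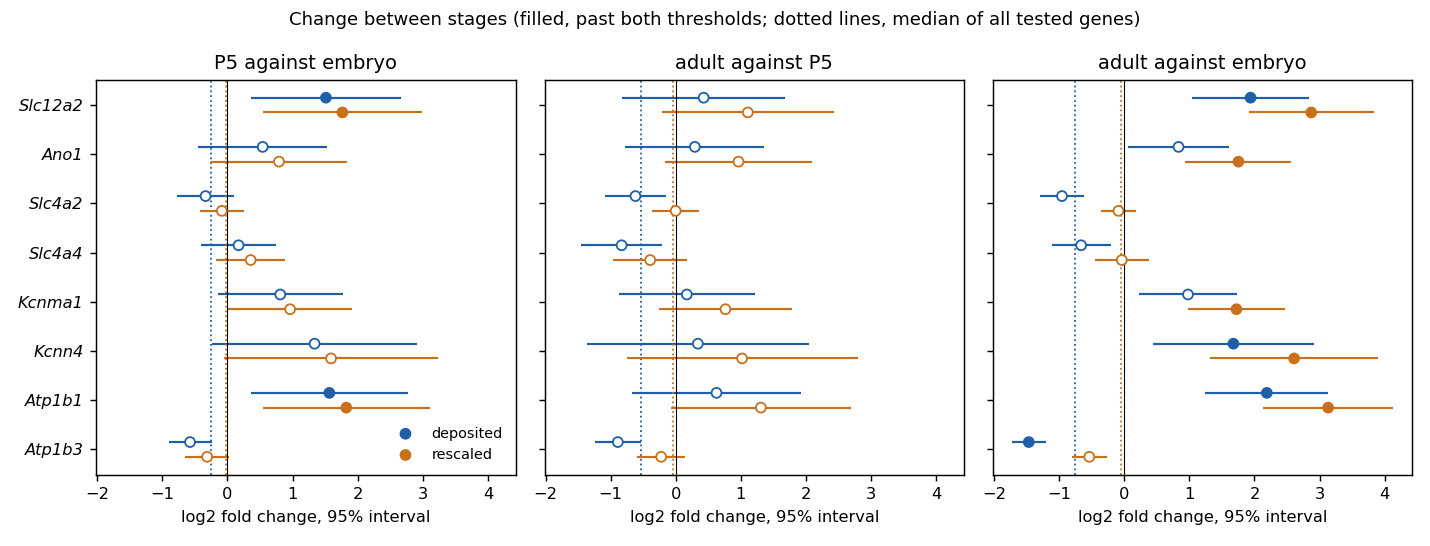
Log2 fold change (x axis) of the 8 genes between stages, with the 95% confidence interval of limma as bars, in deposited (blue) and rescaled (orange) FPKM. Filled points passed both thresholds, dotted lines mark the median of all tested genes, and the 5 genes Slc12a2, Ano1, Kcnma1, Kcnn4 and Atp1b1 lie to the right of 0 in adult against embryo on both scales.

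**Figure D2:**
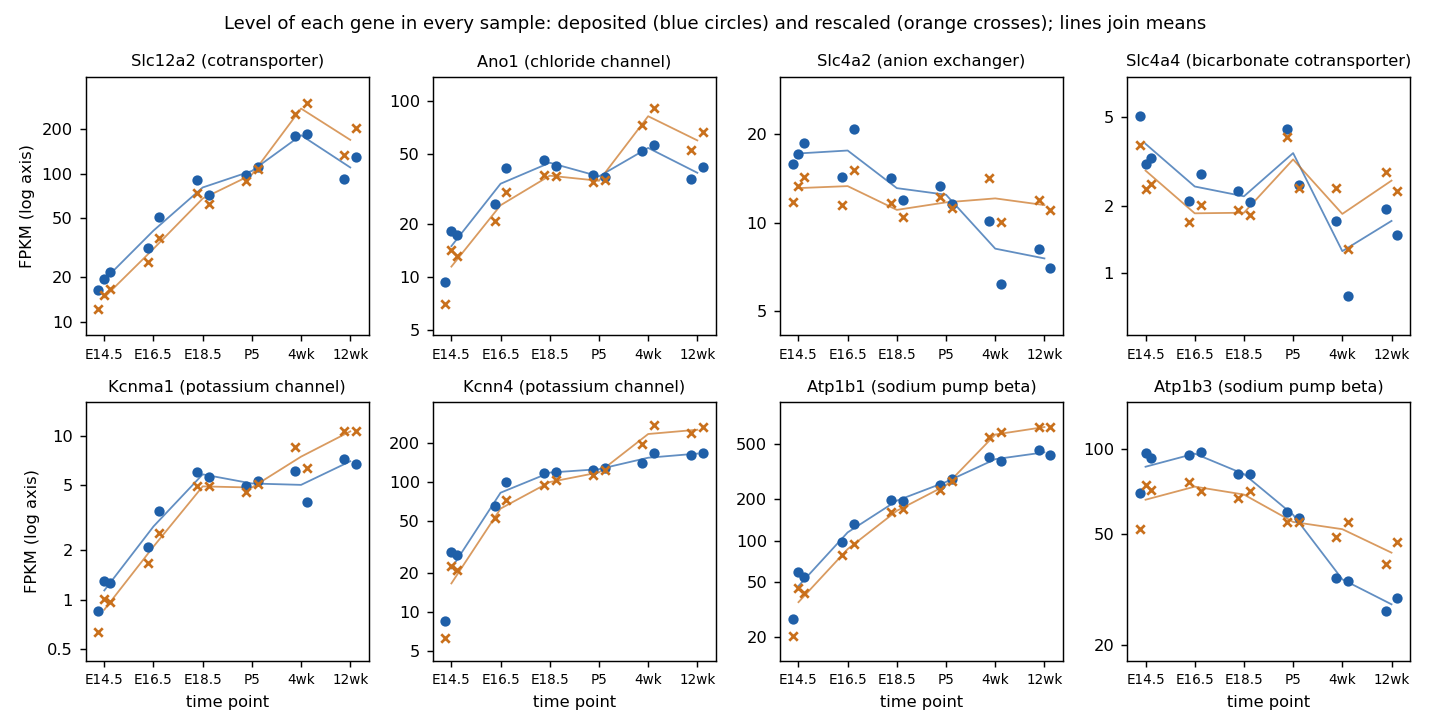
FPKM (y axis, log scale) of each of the 8 genes in every sample at the 6 time points. Blue circles are deposited and orange crosses rescaled values, and lines join the time point means. Atp1b1 has its lowest deposited value at 27.4 FPKM in E14.5 replicate 1 and its highest at 450.3 FPKM in 12wk replicate 1, while deposited Atp1b3 is lowest in the 4 adult samples.

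The cotransporter Slc12a2 (mm9, chr18:58038332-58106475, plus strand) brings chloride into the acinar cell from the blood side. Its level was 16.4, 19.6 and 21.8 FPKM in the E14.5 samples, 31.8 and 50.9 FPKM at E16.5, and 90.0 and 71.4 FPKM at E18.5. It was 97.9 and 111 FPKM at P5, 179 and 184 FPKM at 4wk, and 91.4 and 129 FPKM at 12wk. Every P5 and adult sample lay above every embryonic sample, though 12wk replicate 1 lay only just above E18.5 replicate 1. By mean, the level of Slc12a2 went up with age as far as 4wk, the 12wk samples stood between P5 and 4wk, and of the neighbours in this order only P5 and 12wk overlapped. In rescaled FPKM these did not, with 89.9 and 107 at P5 against 134 and 203 at 12wk. The log2 fold change of Slc12a2 between adult and embryo was 1.94 (SE 0.42, adjusted p = 0.000821 in limma), and 2.87 after rescaling. Between 4wk and 12wk it was -0.74 (SE 0.23, adjusted p = 0.0616), under the fold threshold. In rank, Slc12a2 moved from place 4278 of the 23364 genes by mean FPKM at E14.5 to place 240 at 4wk and place 386 at 12wk.

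Ano1 (mm9, chr7:151774454-151937879, minus strand) forms the calcium-gated chloride channel of the apical acinar membrane. Its level was 9.36, 18.3 and 17.3 FPKM at E14.5, 26.0 and 41.8 FPKM at E16.5, and 46.4 and 42.8 FPKM at E18.5. After birth it was 37.8 and 36.8 FPKM at P5, 52.0 and 56.3 FPKM at 4wk, and 36.0 and 42.2 FPKM at 12wk. In deposited FPKM both E18.5 samples were above both 12wk samples, and embryonic and adult values overlapped. In rescaled FPKM they did not, as Ano1 was at 38.0 and 37.3 at E18.5, the highest of the embryo, and at 52.8 and 66.8 at 12wk, the lowest of the adult. The log2 fold change of Ano1 between adult and embryo was 0.83 (SE 0.36, adjusted p = 0.0477) in deposited FPKM, under the fold threshold, and 1.75 (adjusted p = 0.0012), past it, after rescaling. Its place by mean FPKM went from 5310 at E14.5 to 1656 at E18.5 and 1149 at 12wk.

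Slc4a2 (mm9, chr5:23929655-23946768, plus strand), which exchanges chloride for bicarbonate, did not share this rise. It was 15.8, 17.2 and 18.6 FPKM at E14.5, 14.4 and 20.9 FPKM at E16.5, 14.2 and 12.0 FPKM at E18.5 and 13.4 and 11.5 FPKM at P5. The adult samples were at 10.1 and 6.20 FPKM at 4wk and 8.12 and 7.0 FPKM at 12wk, below every earlier sample on the deposited scale. In rescaled FPKM adult and embryonic values of Slc4a2 overlapped. The log2 fold change of Slc4a2 between adult and embryo was -0.95 (SE 0.16, adjusted p = 8.57e-05), just under the fold threshold, but -0.09 (adjusted p = 0.549) after rescaling. Slc4a2 was called lower in deposited FPKM with a pseudocount of 0.1 (-1.03), with voom (-1.08), without E18.5 replicate 2 (-1.02) and without 4wk replicate 1 (-1.07). An exon of Slc4a2 overlaps the gene Fastk on the opposite strand, and as the study's counting left out reads that fell on more than 1 gene, the value of Slc4a2 may lack the reads of that overlap.

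Slc4a4 (mm9, chr5:89315843-89668678, plus strand), which carries sodium with bicarbonate, had the lowest adult level of the 8 genes. Its values were 5.05, 3.07 and 3.28 FPKM at E14.5, 2.11 and 2.78 FPKM at E16.5, 2.33 and 2.09 FPKM at E18.5 and 4.43 and 2.48 FPKM at P5. In the adult they were 1.72 and 0.788 FPKM at 4wk and 1.95 and 1.48 FPKM at 12wk, below all embryonic samples on the deposited scale, while in rescaled FPKM adult (1.28 to 2.85) and embryo (1.69 to 3.76) overlapped. In the order of their means, neighbouring time points of Slc4a4 overlapped except for 12wk and E18.5. Its log2 fold change between adult and embryo was -0.66 (SE 0.21, adjusted p = 0.0111) in deposited and -0.04 (adjusted p = 0.882) in rescaled FPKM, and neither passed the thresholds. Against P5, the adult level of Slc4a4 was called lower with a pseudocount of 0.1 (-1.18, adjusted p = 0.0301), with voom (-1.15, adjusted p = 0.0267) and without P5 replicate 2 (-1.15, adjusted p = 0.0372). The 4wk level was called lower than at P5 in the same 3 fits (-1.43, -1.57 and -1.30) and without 4wk replicate 1 (-1.28). With a pseudocount of 1 and all samples, neither was called on either scale.

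Of the potassium channels, Kcnn4 (mm9, chr7:25155282-25170228, plus strand) was the more abundant in every sample. Kcnn4 was 8.53, 29.1 and 27.3 FPKM at E14.5, 65.2 and 99.7 FPKM at E16.5, and 116 and 119 FPKM at E18.5. It was 123 and 127 FPKM at P5, 139 and 167 FPKM at 4wk, and 162 and 167 FPKM at 12wk. All P5 and adult samples lay above all embryonic samples, and only the 4wk and 12wk samples overlapped among neighbouring time points. Its log2 fold change between adult and embryo was 1.68 (SE 0.57, adjusted p = 0.0164) and 2.61 after rescaling. Over all samples Kcnn4 spanned 19.6-fold, from E14.5 replicate 1 to 12wk replicate 2. Without E14.5 replicate 1 it spanned 6.12-fold, less than Slc12a2 (9.38-fold) and Atp1b1 (8.25-fold). Kcnn4 went from place 3823 to place 267 by mean FPKM between E14.5 and 12wk.

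Kcnma1 (mm9, chr14:24117983-24622526, minus strand), the pore of the BK channel, was low at all ages. It was 0.854, 1.30 and 1.26 FPKM at E14.5, 2.09 and 3.50 FPKM at E16.5, 6.00 and 5.62 FPKM at E18.5 and 4.96 and 5.26 FPKM at P5. At 4wk it was 6.08 and 3.94 FPKM and at 12wk 7.23 and 6.73 FPKM. The 12wk samples were above all others. In deposited FPKM 4wk replicate 2 was below both P5 samples, and in rescaled FPKM it was above them, at 6.39 against 4.55 and 5.10. The log2 fold change of Kcnma1 between adult and embryo was 0.98 (SE 0.35, adjusted p = 0.0205), under the fold threshold, and 1.72 (adjusted p = 0.000705) after rescaling. At these low levels the pseudocount of 1 understates the change, and with a pseudocount of 0.1 it was called at 1.29 (adjusted p = 0.0238), as with voom at 1.38 (adjusted p = 0.0131). By means of FPKM, 12wk was 6.13-fold above E14.5.

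The sodium pump needs a beta subunit to reach the membrane, and the pair of beta subunits moved apart. Atp1b1 (mm9, chr1:166367398-166388486, minus strand) was 27.4, 58.9 and 54.6 FPKM at E14.5, 98.0 and 131 FPKM at E16.5, and 196 and 192 FPKM at E18.5. It was 252 and 278 FPKM at P5, 399.9 and 372 FPKM at 4wk, and 450.3 and 415 FPKM at 12wk. No neighbouring time points overlapped, and the order of the means followed age at all 6 time points. The log2 fold change of Atp1b1 between adult and embryo was 2.19 (SE 0.44, adjusted p = 0.000441), and 3.13 after rescaling. It was the highest of the 8 genes from E16.5 on, and at 12wk stood at place 98 of all genes by mean FPKM, from place 1654 at E14.5.

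Atp1b3 (mm9, chr9:96233099-96264766, minus strand) was the highest of the 8 genes at E14.5, with 69.8, 96.7 and 93.1 FPKM. It was 95 and 97.7 FPKM at E16.5, 81.6 and 81.4 FPKM at E18.5, 59.8 and 56.9 FPKM at P5, 34.8 and 34.0 FPKM at 4wk, and 26.5 and 29.6 FPKM at 12wk. From E18.5 on each later time point lay below the one before on the deposited scale, while in rescaled FPKM P5 and 4wk overlapped and so did embryo (52.0 to 76.2) and adult (38.8 to 55.1). Atp1b3 fell by 1.46 on the log2 scale between embryo and adult (SE 0.12, adjusted p = 1.55e-07). After rescaling the difference was -0.54 (adjusted p = 0.002), under the fold threshold.

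Because both beta subunits are read in the same sample, their ratio does not depend on the scaling. Of the summed FPKM of Atp1b1, Atp1b2 and Atp1b3, Atp1b1 held 26.7%, 36.8% and 35.8% in the E14.5 samples, 49.9% and 56.0% in those of E16.5, and 69.7% and 69.4% in those of E18.5. Its share was 79.9% and 82.2% at P5, 91.5% and 91.4% for the 4wk samples, and 94.2% and 93.2% for the 12wk samples. Atp1b3 held the rest but for a few percent, from 68.1% in E14.5 replicate 1 to 5.54% in 12wk replicate 1. The crossing lay at E16.5. The ratio of Atp1b1 to Atp1b3 was 0.392, 0.61 and 0.586 in the E14.5 samples, 1.03 and 1.34 in those of E16.5, and 2.40 and 2.36 in those of E18.5. It reached 4.21 and 4.88 at P5, 11.5 and 11 for the 4wk samples, and 17.0 and 14.0 for the 12wk samples. The mean log2 ratio was 0.02 ± 1.02 (SD, n = 7) in the embryo and 3.72 ± 0.29 (SD, n = 4) in the adult, a difference of 3.70 (exact permutation test, two-sided, p = 0.0061, which is the smallest p that 330 splits allow, and 0.0121 adjusted over the 4 ratios tested). The ratio was higher in 4 of 4 adult samples than in any embryonic sample. In deposited FPKM every adult sample already lay above every embryonic one for Atp1b1 and below for Atp1b3. This separation and its p were thus fixed by those values and are no further support. The SD of the embryo includes the change between its ages.

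The same test was run on the other 3 ratios. Slc12a2 over Ano1 ranged from 1.07 to 1.94 over the embryonic samples, was 2.59 and 3.00 at P5, and ranged from 2.54 to 3.44 over the adult samples. The log2 ratio was 0.50 ± 0.33 (SD, n = 7) in the embryo and 1.61 ± 0.19 (SD, n = 4) in the adult, 1.11 higher (exact permutation test, two-sided, p = 0.0061, adjusted p = 0.0121), so that relative to the channel the cotransporter rose. Kcnn4 over Kcnma1 was 9.99 in E14.5 replicate 1, between 19.3 and 31.1 in the other embryonic samples, then 24.8 and 24.1 at P5, and 22.8, 42.4, 22.4 and 24.9 over the adult samples. That log2 ratio differed between adult and embryo by 0.37 (exact permutation test, two-sided, p = 0.273, adjusted p = 0.364), and by 0.16 to 0.47 with each sample left out. Slc4a4 over Slc4a2 was between 0.127 and 0.331 in all 13 samples, with a difference of 0.03 between adult and embryo on the log2 scale (exact permutation test, two-sided, p = 0.873, adjusted p = 0.873). For these last 2 ratios a difference was not detected with 7 and 4 samples.

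**Figure D3:**
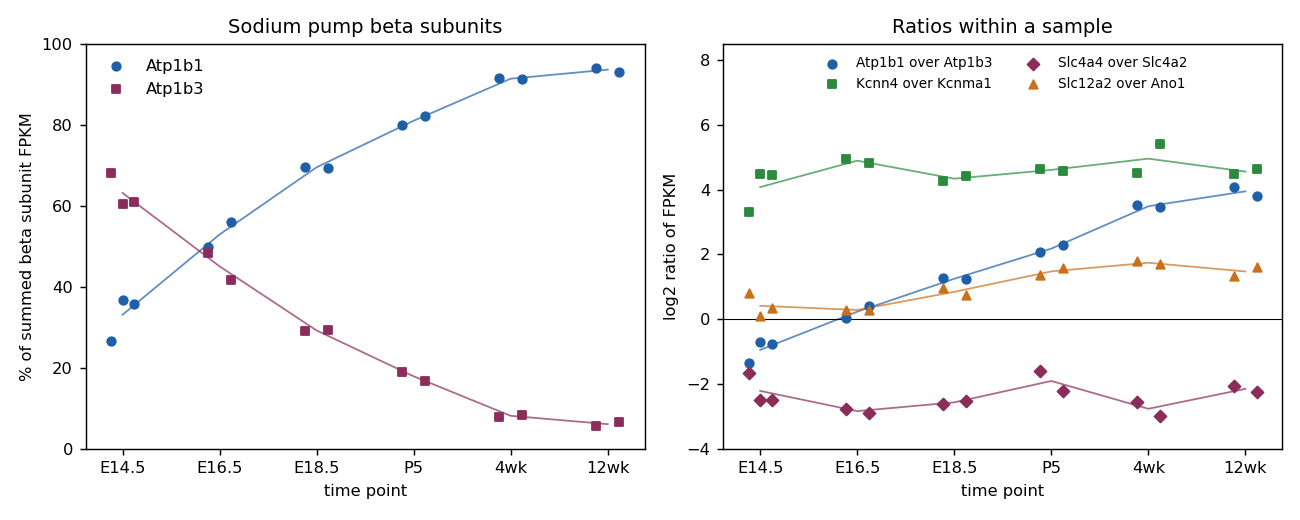
Left, percent of the summed beta subunit FPKM held by Atp1b1 (circles) and Atp1b3 (squares) in each sample at the 6 time points. Right, log2 ratio of FPKM of the 4 pairs of genes in each sample, with lines through the time point means. Atp1b1 crosses Atp1b3 at E16.5 and holds over 91% in all adult samples, while the ratios of Kcnn4 to Kcnma1 and of Slc4a4 to Slc4a2 overlap between embryo and adult.

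A level relative to epithelium gives a further view that does not depend on the scaling of a sample. Against the mean log2 FPKM of the 4 epithelial markers of the same sample, Atp1b1 was 2.57 higher in the adult than in the embryo on the log2 scale, Slc12a2 2.34, Kcnn4 2.08, Kcnma1 1.71 and Ano1 1.24, and for these 5 genes no adult sample overlapped an embryonic one. Atp1b3 was lower, by -1.13, without overlap. Slc4a2 (-0.68) and Slc4a4 (-0.64) overlapped between both stages on this scale. These are values without a test, and the share of all genes without overlap on this scale was not computed. In deposited FPKM, by comparison, 3 of the 8 genes had all adult samples above all embryonic ones, as had 6.29% of all tested genes, and 3 (Slc4a2, Slc4a4 and Atp1b3) had all adult samples below, as had 54.1%.

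Markers of other cell types moved with the same stages. Summed over 5 markers, mesenchyme stood at 1270 to 2142 FPKM in the embryo, 1198 to 1364 FPKM at P5 and 41.5 to 242 FPKM in the adult. Summed, the 8 acinar markers rose from 65.5 FPKM in E14.5 replicate 1 to 40268 FPKM in E18.5 replicate 2. They stood at 69215 to 74439 FPKM at P5 and between 135868 and 201419 FPKM in the adult. The 6 duct markers stood at 34.4 to 312 FPKM in the embryo, 817 to 897 FPKM at P5 and 17641 to 20694 FPKM in the adult. By gene, 6 of the 8 acinar markers were called higher in the adult than in the embryo and 0 lower. Of the 6 duct markers 4 were called higher and 1 lower. All adult samples of Krt19 lay below all embryonic ones, and Krt7 overlapped. Of all tested genes 5.58% were called higher and 38% lower. A sum follows its highest genes and is not a count of cells. The part of cell numbers in the levels of these markers or of the 8 genes was not tested.

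Over consecutive time points, calls on the deposited scale came in the first interval. From E14.5 to E16.5, Kcnn4 rose by 2.02 (SE 0.39, adjusted p = 0.0061), Atp1b1 by 1.33 (SE 0.26, adjusted p = 0.0069), Ano1 by 1.14 (SE 0.25, adjusted p = 0.0113) and Slc12a2 by 1.03 (SE 0.21, adjusted p = 0.0075) on the log2 scale in limma. These were 4 of the 8 genes, where 4.17% of all tested genes were called higher and 5.15% in either direction, and the same 4 were called after rescaling, where 3.65% of all genes were called higher. Kcnma1 was 0.81 higher (adjusted p = 0.0186), under the fold threshold. Without E14.5 replicate 1, the library low in epithelial markers, only Kcnn4 was called (1.48, adjusted p = 0.00049). Atp1b1 was then at 0.99, Slc12a2 at 0.93 and Ano1 at 0.86, with adjusted p of 0.00216, 0.0205 and 0.0128. Without E16.5 replicate 2, Kcnn4 (1.72) and Atp1b1 (1.12) were called, and Slc12a2 stood at 0.70 and Ano1 at 0.81. Epithelial markers rose in the same interval, 2 of the 4 being called higher with a median log2 fold change of 1.34, and their summed level went from between 304 and 529 FPKM at E14.5 to 1072 and 1371 FPKM at E16.5. Of the 8 acinar markers 5 were called higher and 2 lower (median 3.12), and of the 4 skeletal muscle markers 2 were called higher (median 1.67). The part of these cells in the rise of the 4 genes was not tested.

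In the later intervals limma called 0 of the 8 genes on the deposited scale. From E16.5 to E18.5 this compares with 2.94% of all genes, 3 members had an unadjusted p below 0.05, and voom called 1. The nearest was Slc12a2, 0.98 higher (adjusted p = 0.0241) and called after rescaling at 1.12, where 1.32% of all genes were called higher. Kcnma1 was 0.87 higher (adjusted p = 0.0324). Without E16.5 replicate 2, both were called, Slc12a2 at 1.31 (adjusted p = 0.0129) and Kcnma1 at 1.14 (adjusted p = 0.0248). Between E16.5 and E18.5, all 4 skeletal muscle markers were called lower (median -5.39) and 6 of the 8 acinar markers higher (median 4.23). Of all genes 1.85% were called lower and 1.09% higher. The part of these cells in the levels of the 8 genes was not tested. From E18.5 to P5, across birth, 5.04% of all genes were called, 1 member had an unadjusted p below 0.05 (Atp1b3, -0.48, adjusted p = 0.0477), and voom called 0. From P5 to 4wk, 24.3% of all genes were called, 4 members had an unadjusted p below 0.05, and voom called 1 (Slc4a4). After rescaling, Slc12a2 (1.47), Atp1b1 (1.22) and Ano1 (1.19) were called higher in that interval, where 6.4% of all genes were called higher. From 4wk to 12wk, 5.15% of all genes were called, 1 member (Slc12a2) had an unadjusted p below 0.05, and voom called 0.

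The RefSeq promoter sequences of some genes that moved together (Atp1b1, Kcnn4 and Ano1) and of the beta subunit that moved the other way are shown. The search of their letters can be followed in them. The windows of Kcnma1, which also moved with these genes, and of Slc4a2 and Slc4a4 are not shown. Capitals mark the GC box, GGGCGG or its reverse complement CCGCCC, the letters bound by Sp1-type factors. Each run is the 250 bases before the RefSeq start, 5′ to 3′ on the strand of the gene in build GRCm38.p6, at chr1:164458356-164458605 (minus) for Atp1b1, chr7:24370013-24370262 (plus) for Kcnn4, chr7:144738574-144738823 (minus) for Ano1 and chr9:96364432-96364681 (minus) for the first of 2 listed starts of Atp1b3.
Atp1b1: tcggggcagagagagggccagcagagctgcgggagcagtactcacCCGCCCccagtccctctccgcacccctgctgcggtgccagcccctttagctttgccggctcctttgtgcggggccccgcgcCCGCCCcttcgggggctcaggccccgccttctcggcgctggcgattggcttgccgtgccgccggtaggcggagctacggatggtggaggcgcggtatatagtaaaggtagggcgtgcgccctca
Kcnn4: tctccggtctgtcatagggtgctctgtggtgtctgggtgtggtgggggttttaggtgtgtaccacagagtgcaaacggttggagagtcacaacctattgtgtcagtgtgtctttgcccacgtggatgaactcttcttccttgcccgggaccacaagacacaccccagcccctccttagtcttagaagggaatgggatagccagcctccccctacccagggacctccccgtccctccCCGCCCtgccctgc
Ano1: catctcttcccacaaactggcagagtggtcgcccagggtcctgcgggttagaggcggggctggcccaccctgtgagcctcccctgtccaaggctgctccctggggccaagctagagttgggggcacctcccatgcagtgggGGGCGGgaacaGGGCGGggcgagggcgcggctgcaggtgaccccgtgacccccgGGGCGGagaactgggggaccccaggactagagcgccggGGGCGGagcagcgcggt
Atp1b3: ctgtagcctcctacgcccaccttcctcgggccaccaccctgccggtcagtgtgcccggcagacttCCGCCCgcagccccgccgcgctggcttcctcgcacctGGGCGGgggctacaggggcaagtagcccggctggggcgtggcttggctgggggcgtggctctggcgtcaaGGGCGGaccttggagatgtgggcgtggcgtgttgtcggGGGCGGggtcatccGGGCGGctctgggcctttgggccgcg

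On both strands, GC boxes numbered 2 before Atp1b1, 1 before Kcnn4, 4 before Ano1 and 5 before this start of Atp1b3, and 0 before the second listed start of Atp1b3, and 32.7% of 32851 RefSeq promoter windows of this length hold at least 1. In the other windows not shown, they numbered 3 before Kcnma1, 0 before each listed start of Slc4a2, and 1 and 0 before those of Slc4a4. The window before Kcnn4 was 58.8% G and C, against 70.4% for Atp1b1, 72% for Ano1 and 73.6% for Atp1b3. E-boxes (CANNTG), the letters bound by basic helix-loop-helix factors, numbered 1 each before Kcnn4, Ano1 and Atp1b3 and 0 before Atp1b1, and 66.2% of all windows hold 1 or more. CATATG was in 0 of the 4 windows and in 3.46% of all. TATAAA was also in 0 of the 4 and in 12.4% of all, and CCAAT was found once, before Atp1b1, and in 33.9% of all windows.

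Other genes of the pathway, 45 in 6 lists, give the setting, and 36 of them reached 1 FPKM in at least 1 sample. Between embryo and adult, 10 of the 36 were called higher and 7 lower, where 5.58% of all tested genes were called higher and 38% lower, with a median log2 fold change of 0.13 against -0.75 for all tested genes. After rescaling, 37 were tested, as Kcnmb1 then passed the filter through its adult samples only. Of these, 16, Kcnmb1 among them, were called higher and 2 lower, where 13.8% and 14.7% of all genes were. At P5 against embryo 7 were called higher and 1 lower, against 4.14% and 8.14% of all genes. In adult against P5, 2 were called higher and 7 lower, where 2.31% and 20.8% of all genes were, so the share called lower was near that of all genes. After rescaling these were 7 and 3, against 6.07% and 8.56%.

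Of the other sodium pump genes, 2 of 7 tested were called higher in the adult and 1 lower. The shares of all tested genes were 5.58% higher and 38% lower. Fxyd2, a small modulator of the pump, was between 0.427 and 19.7 FPKM in the embryo, 125 and 152 FPKM at P5, and 251, 294, 320 and 120 FPKM in the adult samples, 5.81 higher (SE 0.69, adjusted p = 4.43e-06). It was called in each of the first 3 intervals. Fxyd1 (-0.91) was not called between embryo and adult, and Fxyd3 (0.93) was called only after rescaling (1.87).

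Among the other potassium channel genes, 3 of 7 tested were called higher and 1 lower in the adult, against 5.58% and 38% of all genes. Lrrc26 encodes the gamma subunit that lets BK channels open at resting voltage. It was 1.03, 4.44 and 4.28 FPKM at E14.5, 33.7 and 49.9 FPKM at E16.5, 76.4 and 92.1 FPKM at E18.5, 116 and 120 FPKM at P5, and between 93.7 and 129.9 FPKM in the adult, always above the pore gene Kcnma1. The log2 fold change of Lrrc26 between adult and embryo was 2.60 (SE 0.92, adjusted p = 0.0195), and from E14.5 to E16.5 it was 3.44 (adjusted p = 0.000112), or 2.97 without E14.5 replicate 1 and 3.16 without E16.5 replicate 2. Kcnmb4, a beta subunit of the BK channel named after its values were seen, went the other way. It was between 5.49 and 7.22 FPKM at E14.5 and E16.5, 2.07 and 3.07 FPKM at E18.5 and 1.13 and 1.09 FPKM at P5, and it had 0 reads in all 4 adult libraries. With a floor of 3 reads per library, the mean FPKM of the embryo was at least 19.4-fold higher than that of the adult (adjusted p = 7.13e-07 in limma, and called lower on both scales). Another beta subunit, Kcnmb1, also named after its values were seen, was higher in the adult. It was at 0.079 to 0.2496 FPKM in the embryo and 0.4515 to 0.9994 FPKM in the adult. Kcnmb1 passed the filter only after rescaling, and only through adult samples, where it is high. Its call there (1.02 higher, adjusted p = 2.12e-05 in limma) is thus no further support. Kcnq1 (2.00) and Kcnk1 (1.31) were also called higher in the adult, and Kcne1 (0.49) was not.

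Of the other chloride channels, Cftr (2.31, SE 0.44, adjusted p = 0.000275) and Clcn2 (1.21, SE 0.17, adjusted p = 2.08e-05) were called higher in the adult, and 1 of 6 tested was called lower on the deposited scale and 0 after rescaling. Among all tested genes 5.58% were called higher and 38% lower, and 14.7% lower after rescaling. Ano10 (-0.85) was not called, and Clcn3 (0.90) was called only after rescaling (1.80). Cftr was between 0.782 and 4.73 FPKM in the embryo, 5.55 and 6.56 FPKM at P5, 7.55 and 7.5 FPKM at 4wk and 32.3 and 27.3 FPKM at 12wk. It thus stayed below Ano1 in every sample, but came near it at 12wk.

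**Figure D4:**
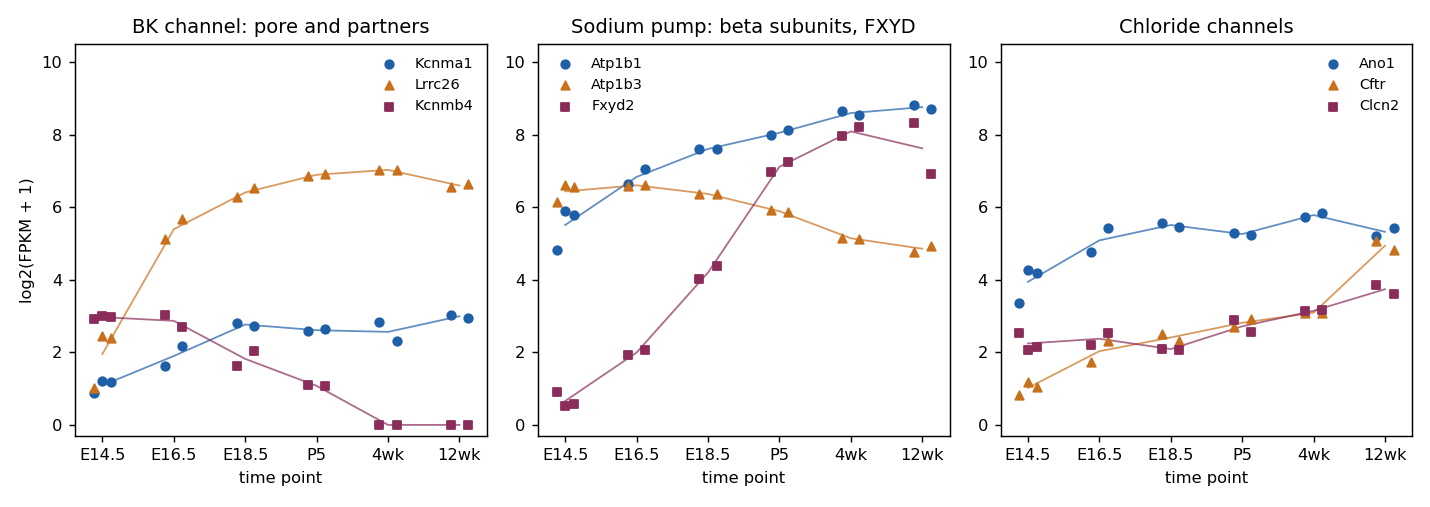
Levels as log2(FPKM + 1) (y axis) in every sample at the 6 time points, with lines through the means, for the BK channel pore Kcnma1 with Lrrc26 and Kcnmb4 (left), the sodium pump genes Atp1b1, Atp1b3 and Fxyd2 (middle) and the chloride channels Ano1, Cftr and Clcn2 (right). Lrrc26 and Kcnmb4 move in opposite directions, Kcnmb4 is at 0 in all 4 adult samples, and Cftr is highest at 12wk.

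Of the cation-chloride cotransporters and their kinases, 0 of 7 tested were called higher and 4 lower in the adult on the deposited scale in limma, and 1 higher and 1 lower after rescaling, with 38% of all genes lower in the first case and 13.8% higher and 14.7% lower in the second, which are shares near those of the 7 genes after rescaling. Stk39, the kinase that activates Slc12a2, was 48.7 ± 24.3 (SD, n = 7) FPKM in the embryo and 70.1 ± 2.21 (SD, n = 4) in the adult, a log2 fold change of 0.68 (adjusted p = 0.0699) in deposited and 1.61 in rescaled FPKM, called on the second scale only. Wnk1 (-1.22) and Oxsr1 (-1.20), kinases of the same cascade, were called lower in deposited FPKM and stood at -0.35 each after rescaling. Slc12a7 (0.11) was not called. Of the acid-base genes, Car2, a carbonic anhydrase, was called higher at 1.21 (adjusted p = 5.6e-05) and 0 of 4 tested were called lower. Over all genes these shares were 5.58% and 38% in deposited FPKM. Slc26a6 (-0.24) and Slc4a7 (-0.45) were not called.

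Of the water channel and the genes of the calcium trigger, 2 of 5 were called higher in the adult and 0 lower. For all tested genes the shares were 5.58% higher and 38% lower. Aqp5, the apical water channel of acinar cells, was 0.57, 9.13 and 5.98 FPKM at E14.5, 94.4 and 127 FPKM at E16.5, 163 and 170.3 FPKM at E18.5, 184 and 177 FPKM at P5, 262 and 215 FPKM at 4wk and 141 and 137 FPKM at 12wk. Its log2 fold change was 2.49 between adult and embryo (SE 1.14, adjusted p = 0.0601) and 4.52 from E14.5 to E16.5 (adjusted p = 0.000431), the same interval in which 4 of the 8 genes were called. Without E14.5 replicate 1 these were 1.77 (adjusted p = 0.0788) and 3.71 (adjusted p = 1.8e-06), and without E16.5 replicate 2 they were 2.82 and 4.31, called each time. Itpr2, a calcium release channel, was 1.63 higher in the adult (adjusted p = 2.96e-06). Chrm3 (0.57), the muscarinic receptor that starts secretion, was called only after rescaling (1.38), and Itpr3 (0.13) on neither scale.

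The genes whose log2(FPKM + 1) was most like each of the 8 over the 13 samples were sought among 8722 genes that reached 10 FPKM. For Kcnn4 they were Bhlha15 (Pearson r = 0.986), a transcription factor of secretory cells, Cxcl17 (0.982) and Prr15l (0.982). For Atp1b1 they were Ckmt1 (0.997), 1600029D21Rik (0.992) and Tapbpl (0.989), and for Slc12a2 Ctage5 (0.986), Mfsd4 (0.982) and Prom2 (0.981). Ano1 was most like Rbm47 (0.975), Wwc1 (0.969) and Atp8b1 (0.964), and Kcnma1 most like Bcl2l2 (0.973), Etv1 (0.972) and Yipf2 (0.972). Atp1b3 was most like Atf1 (0.995), Tinagl1 (0.993) and Ndc80 (0.992). Slc4a2 had Stat5b (0.990), Wasf2 (0.989) and Npepps (0.989), and Slc4a4 had St7 (0.939), Notch2 (0.939) and Cdip1 (0.920). The points share age and the sum to which each sample is scaled, and depth differed between samples. These values thus describe likeness of profiles over the 13 samples.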

How the data were processed

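Single-end reads were aligned by the authors to the mm9 genome (TopHat2 2.0.13, Bowtie2 2.2.6) and assigned to UCSC mm9 genes with featureCounts, leaving out reads on several places or genes. The authors then derived the deposited FPKM with DESeq2 1.10.1, and the study describes a median normalization between samples. The median-of-ratios factor of a sample in the deposited values lay between 0.617 and 1.38, so these FPKM were taken as scaled to sample totals, and the rescaled FPKM add that kind of normalization. FPKM steps gave read numbers for 18575 of the 23364 genes, those with a step that made all their values whole within 0.001. The gene lengths that followed were whole for 99.98% of these, with the read total fitted so that lengths came out whole.

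Differences were tested with limma 3.58.1 (R 4.3.3, mean-variance trend) on log2(FPKM + 1) over 14650 genes with at least 1 FPKM in a sample, by stage and by time point, with Benjamini-Hochberg adjustment. The fits were checked on reads simulated from the embryonic mean of each gene, with changes set in the adult only. That check held no differences between the ages of a stage and did not model the large share of a few genes in adult reads. It does not bear on either. Ratios were tested by exact permutation with scipy 1.17.1 (Python 3.11.15). The genes and lists were chosen with earlier results of these data known. Alternatives were a pseudocount of 0.1, other filters, rescaling, no trend, a replicate block, averaging of time points and each sample left out. The voom fit, the level relative to epithelial markers and the pathway genes without E14.5 replicate 1 or E16.5 replicate 2 were added after the data were seen. Of each pathway list, at most 4 genes are named, those with the highest adult mean FPKM, and for each of the 8 genes the 3 most alike. Positions are from GENCODE M1 (mm9), promoters from RefSeq (GRCm38.p6), which lists 7 of the 8 genes. The counting is not stated to use strand. P-values measure the spread between these samples. In stage comparisons the spread within embryo and adult, and so SD and SE, includes differences between their time points. Some genes of the pathway lists enter the counts and are not reported here by name.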

Additional observations from a re-analysis of the deposited data

Results flagged for a closer look

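Among 24 groups of embryonic or adult samples examined for a sample far from the others (the 8 genes and 4 ratios), 3 had one, and chance alone flags about 1 in 20 groups. All 3 were ratios. In the embryo, E14.5 replicate 1 lay apart for Kcnn4 over Kcnma1, at 3.32 on the log2 scale with a gap of 0.58 of the group's range, and for Slc4a4 over Slc4a2, at -1.65 with a gap of 0.662. It is the library with 304 FPKM of epithelial and 2991 FPKM of red blood markers. In the adult, 4wk replicate 2 lay apart for Kcnn4 over Kcnma1, at 5.41 with a gap of 0.833. Kcnma1 rests there on 246 reads (counting error 6.38%), near the 277 reads (6.01%) of 4wk replicate 1, which did not lie apart.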

How the results depend on the processing

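Counts of the 8 genes called that moved by more than 1.5 times, samples left out aside, were these. For P5 against embryo, 2 called genes became 0 without a filter and 1 with the replicate block (Atp1b1 lost, adjusted p = 0.101). For adult against P5, 0 became 1 with a pseudocount of 0.1 and with voom. From E16.5 to E18.5, 0 became 1 with a pseudocount of 0.1, rescaling and voom. From P5 to 4wk, 0 became 1 with a pseudocount of 0.1 and voom and 3 after rescaling. Smaller moves came with voom and with a pseudocount of 0.1, each giving 6 in place of 4 for adult against embryo (Slc4a2 and Kcnma1 added) and 5 in place of 4 from E14.5 to E16.5 (Kcnma1 added), and with voom and with averaged time points, each giving 3 in place of 2 for P5 against embryo. Rescaling gave 5 for adult against embryo. Pathway genes called in adult against P5 went from 9 to 15 with voom. With each sample left out, the 8 genes gave 0 to 2 calls for P5 against embryo (0 without P5 replicate 1 or 2), 0 to 1 for adult against P5, 4 to 6 for adult against embryo, 1 to 5 from E14.5 to E16.5, 0 to 2 from E16.5 to E18.5 and 0 to 1 from P5 to 4wk, and the pathway genes 4 to 9 for P5 against embryo (4 without P5 replicate 1) and 5 to 13 for adult against P5 (5 without P5 replicate 1). The difference in the log2 ratio of Slc4a4 to Slc4a2 lay between -0.097 and 0.207, changing sign. That of Kcnn4 to Kcnma1 lay between 0.16 and 0.47. The differences for Atp1b1 over Atp1b3 (3.472 to 3.907) and Slc12a2 over Ano1 (1.041 to 1.196) kept direction and call. The causes were not tested.

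Some signs turned between settings. After rescaling, Slc4a4 from E16.5 to E18.5 stood at 0.008, and Slc4a2 from E18.5 to P5 at 0.079 and from P5 to 4wk at 0.025. Kcnma1 from P5 to 4wk was further from 0 after rescaling, at 0.53 (limma, adjusted p = 0.0374), under the fold threshold. With each sample left out, Slc4a2 ranged from -0.244 to 0.268 between E14.5 and E16.5, from -0.183 to 0.047 between E18.5 and P5, and from -0.381 to 0.247 between 4wk and 12wk. Slc4a4 ranged from -0.238 to 0.045 between E16.5 and E18.5, from -0.150 to 0.49 for P5 against embryo, and from -0.009 to 0.597 between 4wk and 12wk. Kcnn4 ranged from -0.024 to 0.245 between 4wk and 12wk, and Kcnma1 from -0.305 to 0.212 between P5 and 4wk.

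Samples with the same replicate number did not deviate together on average (mean r = -0.016 over 30 pairs, from -0.352 to 0.273), so no pairing by number was seen. The mean r of 0.012 over 40 pairs with different numbers is no separate check. Deviations were taken from the time point mean, and those of 2 samples are then exact opposites. With the replicate number as a block, the 8 genes gave 1 call for P5 against embryo and 4 from E14.5 to E16.5.

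Precision was limited by 2 samples per time point (3 at E14.5) and by 5817293 and 7957918 reads on genes at 4wk, where Slc4a4 rests on 75 and 47 reads.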

Other observations

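Of the 36 pathway genes tested, 3 were called between 4wk and 12wk, where 5.15% of all genes were. Kcne1, an accessory subunit of the potassium channel Kcnq1, was between 0.024 and 0.088 FPKM at E14.5, 12.3 and 13.3 FPKM at E18.5, 18.0 and 18.8 FPKM at P5, 12.2 and 11.1 FPKM at 4wk, and 0.087 and 0.725 FPKM at 12wk. From 4wk to 12wk Kcne1 fell by 3.20 on the log2 scale (limma, adjusted p = 5.24e-06), while Kcnq1 was 0.74 higher (adjusted p = 0.0135), under the fold threshold. Cftr rose by 1.85 (adjusted p = 0.000273) in the same interval. Slc26a6, an exchanger of chloride for bicarbonate, was highest at P5 with 19.0 and 18.6 FPKM, and fell by 1.13 (adjusted p = 0.006) from 5.91 and 8.84 FPKM at 4wk to 2.87 and 2.69 FPKM at 12wk. The same 3 genes were called after rescaling. Both ages were male mice, with 2 samples each.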
